A study of Mus musculus with 6 samples.

Results

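Sox9, Sox8, Dmrt1, Foxl2, Irx3, Wt1, Gata4, Emx2, Lhx9 and Tcf21 are transcription factors that direct the formation of the mouse gonad or its commitment to ovary or testis. They were taken as a set of 10 genes by their symbols in the platform annotation, which gave 18 of the 45101 probe sets (groups of oligonucleotides that together measure 1 transcript) on the array and 10 of 18193 named genes. No probe set of a member carried a second gene symbol. By known role the set holds 3 Sertoli regulators (Sox9, Sox8, Dmrt1), 2 granulosa regulators (Foxl2, Irx3) and 5 shared gonad regulators (Wt1, Gata4, Emx2, Lhx9, Tcf21). The samples were ovaries and testes of C57BL/6 mice, the inbred laboratory strain that all groups share, with no allele or treatment named in the labels. Fetal gonads were collected 15.5 days after mating (dpc), neonatal gonads 1 day after birth and adult gonads at the age of 10 weeks, with 1 Affymetrix array for each ovary and each testis sample. Because each group is a single array, no p-value or replicate error can be given, and a gene is called apart where 2 arrays differ at least 4-fold.

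In the mammalian gonad a common precursor of the supporting cells becomes a Sertoli cell in the testis or a granulosa cell in the ovary. In XY gonads SRY turns on Sox9, which with the related Sox8 maintains the Sertoli fate. In XX gonads WNT4, RSPO1 and FOXL2 promote the granulosa fate, and in mice DMRT1 and FOXL2 oppose each other after birth to keep the chosen fate. Wt1, Gata4, Emx2 and Lhx9 are needed earlier, when the gonad forms in both sexes, and Tcf21 marks mesenchymal cells that give rise to the interstitium.

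Of the 10 factors, the annotation table of RefSeq promoters (build GRCm38.p6) held 6. The 250 bases before the transcription start of 4 of them are shown, 5' to 3'. Foxl2 and Irx3 are shown because they were, with the scaling used, the members with higher signals in all 3 ovaries than in any testis, and Lhx9 and Tcf21 because both were higher in the testis at 15.5 dpc and on day 1 and higher in the ovary at 10 weeks. Capitals mark matches to 3 short core motifs searched on both strands. GATAA is a core bound by GATA factors and reads TTATC on the opposite strand. ACAAT is a core bound by SOX factors and reads ATTGT there. TAATT is a core bound by homeodomain factors and reads AATTA there. Foxl2 lies at chr9:98955357-98955606 on the plus strand, Irx3 at chr8:91801655-91801904 on the minus strand, Lhx9 at chr1:138842445-138842694 on the minus strand and Tcf21 at chr10:22820144-22820393 on the minus strand.
Foxl2: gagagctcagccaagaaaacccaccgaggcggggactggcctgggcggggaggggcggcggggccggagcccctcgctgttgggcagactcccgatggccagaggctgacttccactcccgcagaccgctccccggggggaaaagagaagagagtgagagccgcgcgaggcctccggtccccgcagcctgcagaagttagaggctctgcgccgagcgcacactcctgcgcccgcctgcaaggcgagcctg
Irx3: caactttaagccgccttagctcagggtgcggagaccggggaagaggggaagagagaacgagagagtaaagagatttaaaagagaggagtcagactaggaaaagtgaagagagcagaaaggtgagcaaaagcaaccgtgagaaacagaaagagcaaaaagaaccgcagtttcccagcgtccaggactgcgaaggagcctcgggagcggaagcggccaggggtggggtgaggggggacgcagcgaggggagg
Lhx9: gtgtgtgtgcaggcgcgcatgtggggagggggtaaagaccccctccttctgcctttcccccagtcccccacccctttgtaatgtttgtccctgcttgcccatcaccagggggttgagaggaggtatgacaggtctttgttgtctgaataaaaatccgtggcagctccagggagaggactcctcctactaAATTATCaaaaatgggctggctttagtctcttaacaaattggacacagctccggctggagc
Tcf21: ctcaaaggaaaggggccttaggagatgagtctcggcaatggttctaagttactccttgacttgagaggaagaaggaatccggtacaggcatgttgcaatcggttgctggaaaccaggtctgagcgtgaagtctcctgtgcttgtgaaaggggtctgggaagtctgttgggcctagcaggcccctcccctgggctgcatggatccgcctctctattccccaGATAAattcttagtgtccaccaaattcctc
The Lhx9 window held 1 GATAA match and 1 TAATT match, which overlap in the capitals, and the Tcf21 window held 1 GATAA match. The Foxl2 and Irx3 windows held none of the 3 motifs. Among the upstream windows of 32851 promoters of the same length, 22.6% held GATAA, 27.7% held ACAAT and 25% held TAATT, so a match or its lack is common and is given as a description of these letters. The Foxl2 window was rich in G and C (70.8%), against a median of 52.4% over all windows.

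The deposited values are linear signals. Each array was scaled to the same 2% trimmed mean, and signals under 75.3, the median of all scaled signals, were raised to this floor. A ratio against an array at the floor is a lower bound, written "at least", and the signals of different probe sets are not compared with each other. Between 11906 and 12661 of the 18193 genes lay above the floor on an array. Of the members' 18 probe sets 15 were above it on at least 1 array, and 6 of the 10 genes (Foxl2, Wt1, Gata4, Emx2, Lhx9 and Tcf21) were above it on all 6 arrays. Eif2s3y, a gene of the Y chromosome, lay at the floor in each ovary and between 757 and 1091 in the testes, so the sexes matched their labels. The deposited signals of 9 hybridization controls, RNAs added before hybridization, were dimmest in adult testis (mean 1170) and neonatal ovary (1525), the other 4 arrays having means between 2206 and 2708. The 3' to 5' signal ratio, a sign of RNA quality, reached 3.12 (neonatal ovary) and 2.36 (adult testis) for Gapdh, where the others had 1.32 to 1.45, but for Actb it was lowest in adult testis (1.81) and 2.91 to 3.78 on the other 5 arrays. The robust SD of a log2 ratio, from pairs of probe sets of the same gene, was 0.16, 0.28 and 0.61 for ovary over testis at 15.5 dpc, on day 1 and at 10 weeks, which leaves out variation between animals. In bulk tissue such as these gonads, fewer cells of a type and less RNA per cell cannot be told apart.

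**Figure D1:**
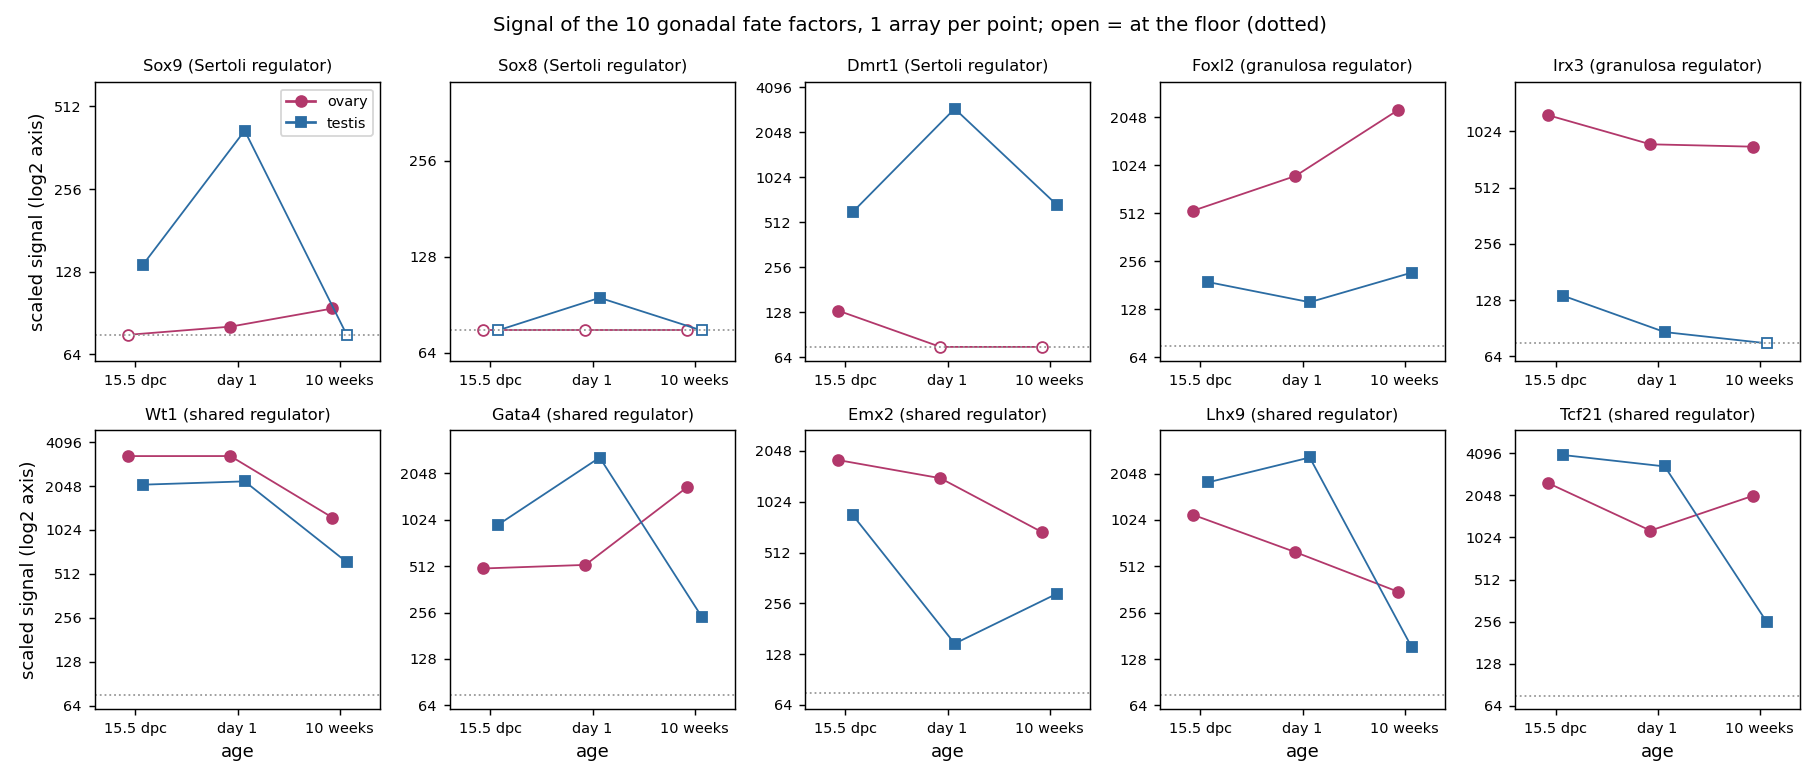
Scaled signal (log2 axis) of each of the 10 factors by age, ovary as circles and testis as squares, 1 array per point. Open symbols lie at the floor of 75.3, the dotted line. Dmrt1 is higher in every testis, and Foxl2 and Irx3 in every ovary. The Gata4, Lhx9 and Tcf21 lines of the 2 tissues cross between day 1 and 10 weeks, as do those of Sox9, which lie at or near the floor at 10 weeks.

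Among the Sertoli regulators, Dmrt1, a DM-domain factor of Sertoli cells and germ cells, separated the tissues at each age, Sox9 did so on day 1, and Sox8 was close to the floor throughout. Dmrt1 had a signal of 131 in ovary at 15.5 dpc and lay at the floor in ovary on day 1 and at 10 weeks, against 599.6, 2945 and 671 in testis at the 3 ages. The lowest testis thus lay above the highest ovary. Dmrt1 was 4.56-fold lower in fetal ovary than in fetal testis, at least 39.1-fold lower in neonatal ovary and at least 8.91-fold lower in adult ovary. The testis signal was highest on day 1, where it was 4.91-fold higher than at 15.5 dpc, and at 10 weeks it was 4.39-fold lower than on day 1. The log2 ratio of this later step, -2.13, was -1.98 after quantile normalization, -1.89 for signals as deposited and -0.64 with the hybridization controls, so the call was lost in these. The 7 germ cell markers (such as Ddx4 and Dazl) summed to 5054, 4307 and 702 in ovary, against 10815, 5516 and 13718 in testis. The part of germ cells in the Dmrt1 values was not tested.

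Sox9, the SRY-box factor that sets the Sertoli fate, was at the floor in fetal ovary and had signals of 80.6 and 93.9 in neonatal and adult ovary, against 135 and 418 in fetal and neonatal testis and the floor in adult testis. The neonatal testis was thus the highest of the 6 arrays. Sox9 was at least 1.79-fold lower in ovary than in testis at 15.5 dpc and 5.18-fold lower in neonatal ovary than in neonatal testis. In adult gonads it was at least 1.25-fold higher in ovary, but the log2 ratio of ovary over testis was -0.70 with scaling to the hybridization controls, so no direction holds there. Of 3 Sox9 probe sets, 2 were under the floor on all 6 arrays, so the values rest on 1 probe set, and the neonatal log2 ratio was -1.04 for the mean of the 3. Sox8, a close relative of Sox9, was above the floor in neonatal testis with 95.3 and at the floor on the other 5 arrays, a ratio of at least 1.27 over neonatal ovary.

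The granulosa regulators were higher in every ovary than in any testis with the scaling used, which held for Irx3 but not for Foxl2 on the scale of the hybridization controls, where the lowest Foxl2 ovary had 437 (fetal) and the highest testis 466 (adult). Foxl2, a forkhead factor that maintains granulosa cells, had signals of 532, 878 and 2266 in ovary at 15.5 dpc, on day 1 and at 10 weeks, against 189.8, 142 and 217 in testis. Its ovary signal was higher at each later age, by 1.65-fold from 15.5 dpc and by 2.58-fold from day 1. The 3 testes stayed within 1.53-fold of each other with the scaling used, but ran from 108 to 466 with the hybridization controls. Foxl2 was 2.80-fold higher in fetal ovary, 6.20-fold higher in neonatal ovary and 10.4-fold higher in adult ovary than in the testis of the same age. Its second probe set was under the floor on all 6 arrays.

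Irx3, an Iroquois homeobox factor that is expressed in the developing mouse ovary, had ovary signals of 1248, 873 and 848 at the 3 ages, against 135 and 86.4 in fetal and neonatal testis and the floor in adult testis. It was 9.21-fold higher in fetal ovary, 10.1-fold higher in neonatal ovary and at least 11.3-fold higher in adult ovary. Irx3 and Foxl2 therefore differed in their course, since the Irx3 ovary signal was 1.43-fold lower on day 1 than at 15.5 dpc (log2 ratio -0.52, and -0.02 with the hybridization controls). Of the 15282 genes that exceeded the floor anywhere, 5.71% had all 3 ovaries above all 3 testes, as did Foxl2 and Irx3, and 2.47% had all 3 testes above all 3 ovaries, as did Dmrt1. Counted against these shares, 2 and 1 of the 10 members separated the tissues, and the ages are not replicates. With the hybridization controls these counts were 1 (Irx3) and 2 (Dmrt1 and Sox9), and with the floor at the 25th percentile or no floor they were 2 and 2, with Sox8 beside Dmrt1.

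**Figure D2:**
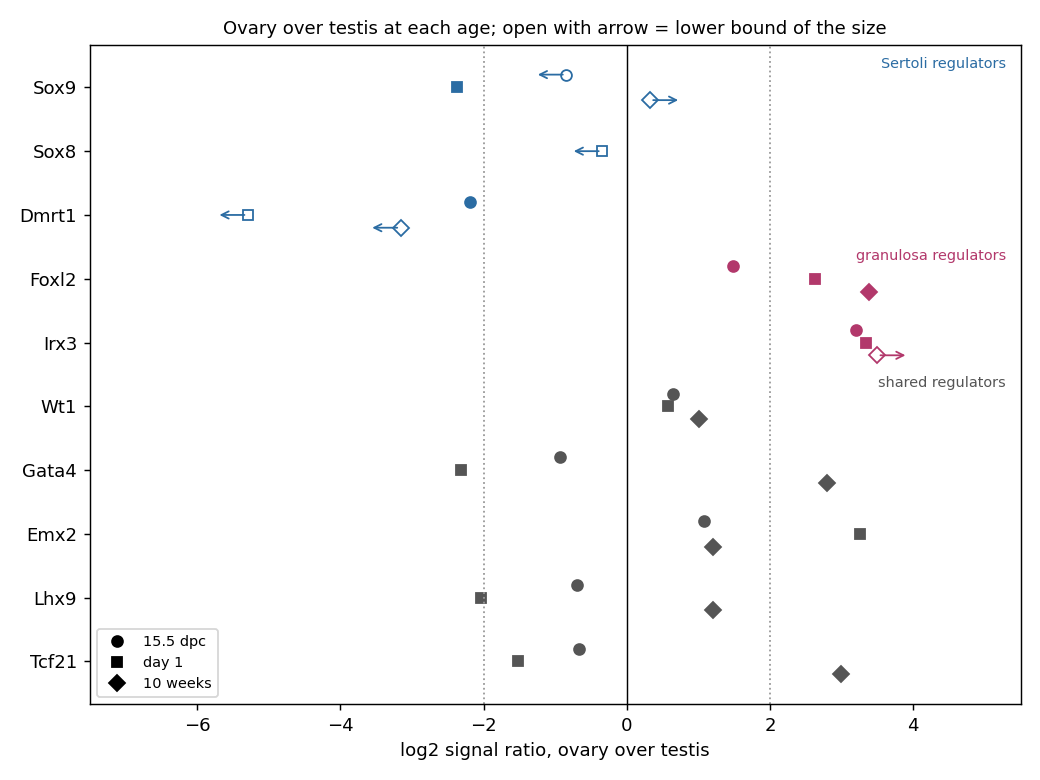
Log2 signal ratio of ovary over testis for each factor at 15.5 dpc (circle), on day 1 (square) and at 10 weeks (diamond). Open symbols with arrows are lower bounds of the size, and dotted lines mark 4-fold. Foxl2, Irx3, Wt1 and Emx2 lie right of 0 at all 3 ages, and Dmrt1 lies left of it at all 3. Gata4, Lhx9 and Tcf21 change sides at 10 weeks, as does Sox9, whose adult value of 0.32 is a bound.

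The shared regulators did not move as a group. Wt1, a zinc finger factor of the genital ridge that Sertoli and granulosa cells keep, had the same order of the sexes at each age, with small ratios. Its ovary signals were 3289, 3291 and 1245 at the 3 ages, against 2094, 2206 and 617 in testis. The ovary was higher at each age by 1.57-fold, 1.49-fold and 2.02-fold, but at 10 weeks the log2 ratio was -0.11 when the arrays were matched on the hybridization controls. Between day 1 and 10 weeks the Wt1 signal was 2.64-fold lower at the later age in ovary and 3.58-fold lower in testis, where the log2 ratio of -1.84 became -0.34 with the hybridization controls.

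Gata4, a zinc finger factor needed for the genital ridge and for both supporting cell types, had signals of 495, 522 and 1671 in ovary at 15.5 dpc, on day 1 and at 10 weeks, against 946, 2595 and 240.5 in testis. The ovary was 1.91-fold lower at 15.5 dpc and 4.97-fold lower on day 1, and it was 6.95-fold higher at 10 weeks. In ovary the signal at 10 weeks was 3.20-fold higher than on day 1, whereas in testis it was 10.8-fold lower. The second Gata4 probe set, which lay above the floor on 2 arrays, had 228 in neonatal testis and 139 in adult ovary.

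Tcf21, a basic helix-loop-helix factor of interstitial progenitors, followed the same order of the sexes. Its ovary signals were 2505, 1147 and 2031, against 3988, 3303 and 254 in testis at the 3 ages. It was 1.59-fold lower in fetal ovary, 2.88-fold lower in neonatal ovary and 7.99-fold higher in adult ovary. Its other probe set reached at most 85.3, in fetal testis, and was at or below the floor on the other 5 arrays. Lhx9, a LIM-homeodomain factor of the coelomic epithelium and early gonad, had ovary signals of 1104, 633 and 351, against 1794, 2606 and 152 in testis. It was 1.62-fold lower in fetal ovary, 4.12-fold lower in neonatal ovary and 2.30-fold higher in adult ovary, where the log2 ratio was 0.08 when the hybridization controls set the scale.

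All 4 Lhx9 probe sets placed the ovary below the testis at both early ages, by 1.62-fold to 2.09-fold at 15.5 dpc and by 3.30-fold to 4.12-fold on day 1. In adult testis 3 of the 4 were at the floor. In adult ovary 1 of these lay at the floor too and another had 77.2, so the adult order of the sexes rests on the brightest and second brightest. The second brightest went another way than the brightest between 15.5 dpc and day 1 in testis. Its signal was 1.58-fold lower at the later age, while that of the brightest was 1.45-fold higher. In ovary the same probe set was 1.51-fold higher at 10 weeks than on day 1, while the brightest was 1.80-fold lower.

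**Figure D3:**
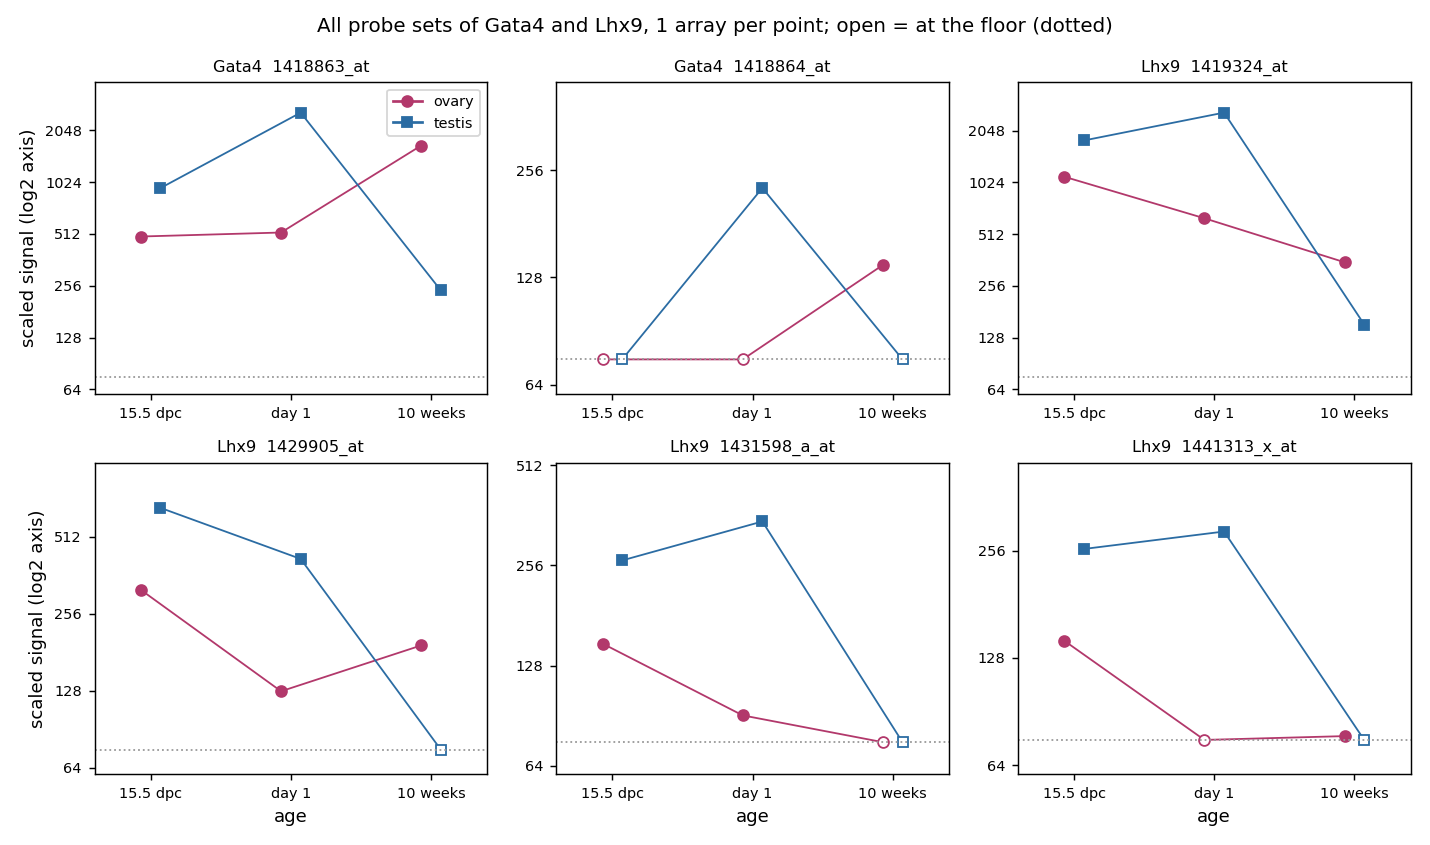
Scaled signal (log2 axis) of the 2 Gata4 and 4 Lhx9 probe sets by age, ovary as circles and testis as squares, 1 array per point, with open symbols at the floor (dotted line). Each probe set that is above the floor places neonatal testis above neonatal ovary, and no probe set places adult testis above adult ovary.

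Emx2, a homeobox factor needed for the urogenital system, had ovary signals of 1809, 1413 and 674, against 856, 148 and 292 in testis at the 3 ages. The neonatal testis was the lowest of the 6 arrays, and the ovaries of 15.5 dpc and day 1 were the highest. Emx2 was 2.11-fold higher in fetal ovary, 9.56-fold higher in neonatal ovary and 2.31-fold higher in adult ovary than in the testis of the same age, and the adult log2 ratio was 0.09 on the scale of the hybridization controls. In testis it was 5.79-fold lower on day 1 than at 15.5 dpc, which no other member was, and it was 1.97-fold higher at 10 weeks than on day 1, where 8 of the other 9 members were lower.

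Markers of duct and surface epithelium moved with Emx2 in part. Of 9 listed genes 8 were measured (Krt8, Krt18, Krt19, Upk3b, Pax8, Ovgp1, Cdh1 and Epcam). All 8 were at least 4-fold above neonatal testis in neonatal ovary, beside 1.94% of 13119 genes. Their summed scaled signal was 9339, 22327 and 3793 in ovary at the 3 ages, against 7656, 2509 and 1439 in testis. Krt19, a keratin of these epithelia, had 190 in neonatal testis against 946 in fetal testis, and Podxl, a surface glycoprotein of the coelomic epithelium, had 463 against 1943. Krt19 was the only 1 of the 8 that was 4-fold or more lower there, and Podxl the only 1 of 12 gonad formation genes. Of all genes, 0.631% were lower in this step. The sum was highest in neonatal ovary, while the log2 ratio of Emx2 in neonatal over fetal ovary was -0.36 and turned to 0.14 with the hybridization controls. The part of this epithelium in the Emx2, Wt1 and Lhx9 values was not tested.

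In fetal gonads 2 of the 9 members tested (above the floor on at least 1 of the 2 arrays) were 4-fold or more apart, beside 0.913% of all genes tested. Of these, 1 was higher in ovary (Irx3), beside 0.278% of 12595 genes, and 1 was lower (Dmrt1), beside 0.635%. On day 1 all 10 were tested and 7 were called, beside 3.27% of all genes, and 3 of these were higher in ovary (Irx3, Emx2 and Foxl2), beside 1.94% of 13119 genes. The 4 that were lower, beside 1.33%, were Dmrt1, Sox9, Gata4 and Lhx9. At 10 weeks 5 of 9 were called, beside 28.9% of all genes. Of these, 4 were higher in ovary (Irx3, Foxl2, Tcf21 and Gata4) and 1 was lower (Dmrt1), where 15.1% of 14349 genes were higher and 13.8% lower. The adult count therefore stands much nearer to its background than the neonatal one. With scaling to the hybridization controls the calls of Sox9, Gata4 and Lhx9 on day 1 were lost, with log2 ratios of ovary over testis of -1.77, -1.71 and -1.44, as were those of Gata4 (1.68) and Tcf21 (1.88) at 10 weeks. With the floor at the 75th percentile of all signals the ratios of Irx3 at each age (1.87, 1.35 and 1.31), of Dmrt1 at 15.5 dpc (-0.81) and 10 weeks (-0.97) and of Foxl2 (1.36) and Sox9 (-0.29) on day 1 no longer reached 4-fold. With a gene's probe sets averaged, 5 rather than 7 were called on day 1, without Sox9 (-1.04) and Lhx9 (-1.99).

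The medians of the Sertoli and granulosa regulators had opposite directions at each age, and that of the shared regulators changed direction at 10 weeks. At 15.5 dpc, on day 1 and at 10 weeks the median log2 ratio of ovary over testis was -1.52, -2.37 and -1.42 for the Sertoli regulators, 2.35, 2.98 and 3.44 for the granulosa regulators, and -0.67, -1.53 and 1.21 for the shared regulators. With the hybridization controls the adult median of the shared regulators was 0.09. Over all genes tested it was 0.02, 0.07 and 0.35. Medians over members at the floor on 1 array are bounds, and at 15.5 dpc and 10 weeks the Sertoli median rests on 2 genes. A change of an array's scale factor moves all members above the floor by the same amount, so their order within a comparison does not depend on it. On day 1 Irx3 and Sox9, the extremes above the floor on both arrays, stood 5.71 apart on the log2 scale.

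In testis Dmrt1, Sox9, Gata4 and Lhx9 were higher on day 1 than at 15.5 dpc and lower at 10 weeks than on day 1. So were Wt1, with log2 ratios of 0.08 (as low as -0.13 with other processing) and -1.84, and Sox8, with bounds of at least 0.34 in size. Emx2 had the opposite course, and so did Foxl2 with smaller log2 ratios (-0.42 and 0.62). The second brightest Lhx9 probe set was lower on day 1 than at 15.5 dpc (-0.66). Day 1 over 15.5 dpc, the log2 ratios were 2.30 for Dmrt1, 1.63 for Sox9, 1.46 for Gata4, 0.54 for Lhx9, 0.08 for Wt1, -0.27 for Tcf21, -0.42 for Foxl2, -0.65 for Irx3 and -2.53 for Emx2. Of the 10 members tested 2 were called, beside 1.14% of all genes, with 1 that was 4-fold or more higher (Dmrt1), beside 0.513% of 12669 genes, and 1 that was lower (Emx2), beside 0.631%. At 10 weeks over day 1, 5 of 10 were 4-fold or more lower, beside 13.2% of 14198 genes, and none was higher, beside 13.7% (26.9% in either direction). The lower ones were Lhx9 (17.1-fold), Tcf21 (13.0-fold), Gata4 (10.8-fold), Sox9 (at least 5.55-fold) and Dmrt1 (4.39-fold). When the hybridization controls set the scale, 2 were lower (Lhx9 and Tcf21) and 2 were higher (Emx2 and Foxl2). The median log2 ratio of all genes above the floor on both arrays was -0.50 with the scaling used and 0.79 with the controls. In both, Lhx9, Tcf21 and Gata4 had the lowest ratios of the members above the floor on both arrays and Emx2 the highest, 5.08 above Lhx9 on the log2 scale.

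Spermatid markers differed across the same step. All 10 of them (such as Prm1, Prm2, Tnp1 and Tnp2, which package sperm chromatin) were above the floor in adult testis, with a summed signal of 90388, against 2 of 10 and 465 in neonatal testis, where these 4 were at the floor. Of the 17 tested genes of the Sertoli pathway list, 5 were 4-fold or more lower in adult than in neonatal testis and none was higher. This stood beside 13.2% and 13.7% of all genes, and the list's median was -0.90. Amh, which makes the female ducts regress, was at least 70.5-fold lower, and Dhh, a hedgehog ligand of Sertoli cells, 10.8-fold lower. Cst9, a cystatin of Sertoli cells, had 5319 in adult testis against 7425 in neonatal testis, and Ptgds, a prostaglandin D synthase induced by SOX9, had 6156 against 5924. Of 7 measured genes of the interstitial progenitor list 5 were lower, with a median of -3.54, led by Pdgfra, a receptor of these progenitors, at 17.8-fold and Nr2f2, a nuclear receptor, at least 15.0-fold. With the scaling used, lower signals were not particular to these lists, since 5 of 14 tested genes of the granulosa pathway were lower and 1 higher (median -1.31). For gonad formation 4 of 11 were lower and none higher (median -1.79), while the members' family relatives had 3 of 23 lower and 3 higher. The part of spermatid RNA in the members' values was not tested.

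In ovary no member was called between consecutive ages. For Dmrt1 the ratio of day 1 over 15.5 dpc is a bound, at least 1.75-fold lower, since neonatal ovary lay at the floor, and with the floor at the 25th percentile the log2 ratio was -2.57. Gata4 reached a log2 ratio of 2.09 at 10 weeks over day 1 for signals as deposited. Of all genes 1.05% were higher and 0.321% lower on day 1 than at 15.5 dpc (1.38% in all), and 2.04% were higher and 2.59% lower at 10 weeks than on day 1 (4.62% in all). Day 1 over 15.5 dpc, the log2 ratios of members above the floor on both arrays ran between -1.13 (Tcf21) and 0.72 (Foxl2). At 10 weeks over day 1 they ran between -1.40 (Wt1) and 1.68 (Gata4), with Foxl2 at 1.37, Tcf21 at 0.82, Lhx9 at -0.85 and Emx2 at -1.07. Amh, which granulosa cells of growing follicles make, had 1197 in adult ovary and was at the floor in neonatal ovary, and Nr5a1, the nuclear receptor that acts with GATA4 on such genes, had 2648 against 522.

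**Figure D4:**
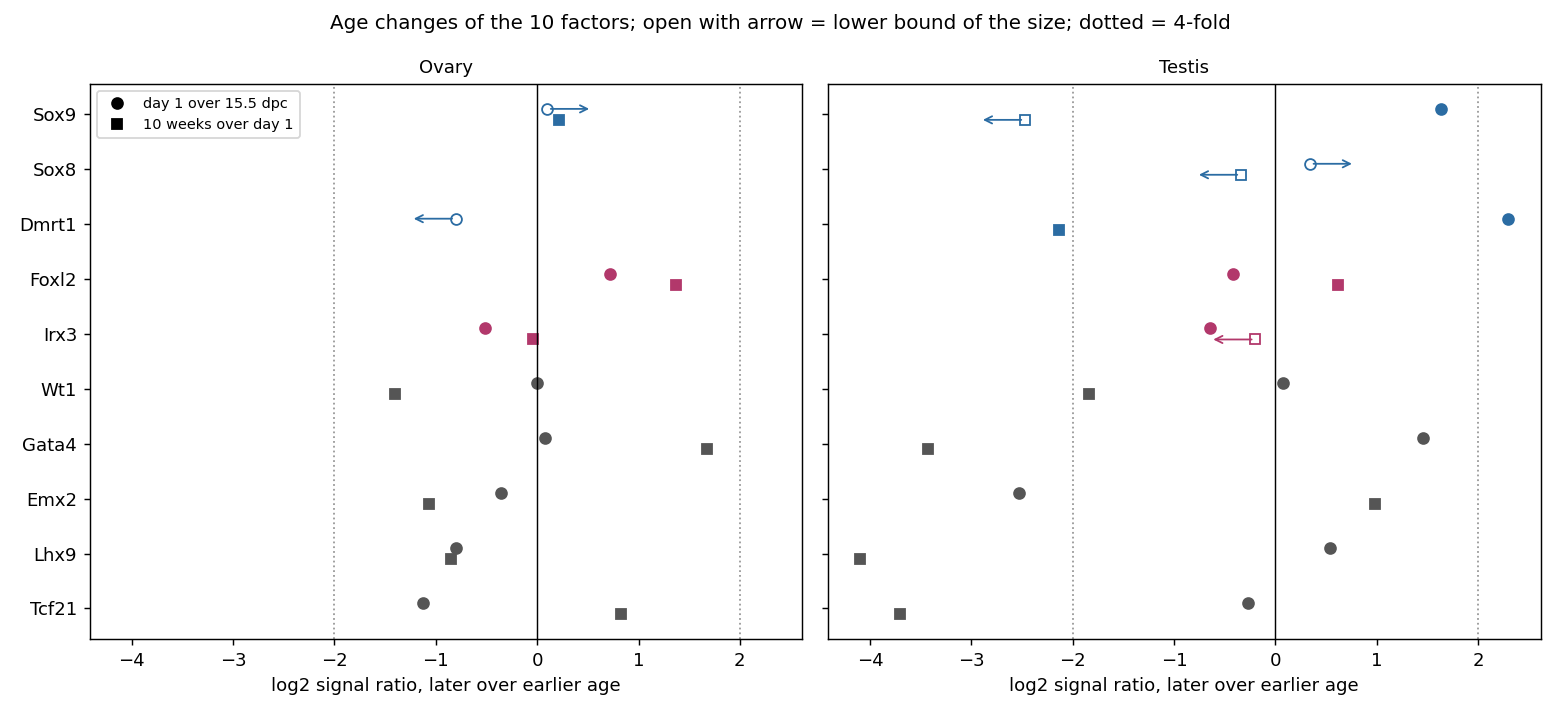
Log2 signal ratio of each later over the earlier age in ovary (left) and testis (right), day 1 over 15.5 dpc as circles and 10 weeks over day 1 as squares. Open symbols with arrows are lower bounds, and dotted lines mark 4-fold. The ovary symbols all lie inside 4-fold, those of Dmrt1 and Sox9 at day 1 over 15.5 dpc being bounds, while in testis 5 members lie past it at 10 weeks over day 1, all lower.

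The pathways around these factors were described by lists chosen with earlier results of these data known. Of 20 listed genes of the Sertoli pathway 19 were measured and 17 were tested in fetal gonads, of which 6 were 4-fold or more lower in ovary and none higher, with a median log2 ratio of -1.48. Of all genes tested, 0.635% were lower and 0.278% higher in fetal ovary, and 1.33% and 1.94% in neonatal ovary. The largest were Cst9 (at least 53.4-fold), Amh (at least 27.8-fold), Dhh (at least 12.8-fold) and Col9a3, a collagen chain (at least 6.88-fold). On day 1, 7 of 17 were lower and none higher (median -1.77), with Mro, a gene of the developing testis, at least 14.7-fold. At 10 weeks 3 of 15 were higher in ovary, among them Amh at least 15.9-fold and Vnn1, a pantetheinase, 15.9-fold, and 2 were lower, Cst9 at least 70.6-fold and Ptgds 10.0-fold, with a median of 0.12, where 15.1% of all genes were higher and 13.8% lower. Sry itself was at the floor on all 6 arrays.

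Of the 18 genes of the granulosa pathway list, all measured, 1 was higher and 1 lower in fetal ovary (median 0.67 over 17 tested). Of all genes, 0.278% were higher and 0.635% lower there. Fst, the activin-binding follistatin, was 6.35-fold higher, and Hsd17b1, an estrogen-forming enzyme that fetal Sertoli cells of the mouse also express, at least 7.89-fold lower. On day 1, 1 of 17 was higher and 2 were lower (median 1.05), beside 1.94% and 1.33% of all genes. The higher one was Rspo1, the WNT enhancer of ovarian fate, at 6.59-fold, and the lower ones were Hsd17b1 and Inhba. At 10 weeks 12 of 18 were higher and 1 lower (median 2.26), beside 15.1% and 13.8% of all genes. Nr5a2, a nuclear receptor of granulosa and luteal cells, was at least 64.9-fold higher and Fst 37.1-fold higher. Wnt4, the ligand that opposes the testis fate, had ovary signals of 2124, 1275 and 2477, against 1476 and 406 in fetal and neonatal testis and the floor in adult testis.

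Of 14 listed genes for the formation of the gonad 12 were measured, and none differed by 4-fold between fetal ovary and fetal testis (median -0.07). Of all genes, 0.913% did so. On day 1 Podxl was 8.92-fold higher in ovary, and Nr5a1 and Cited2, a coactivator that acts with WT1 on Nr5a1, were lower by 6.79-fold and 4.75-fold. At 10 weeks 6 of 10 tested were higher and none lower. Of all genes, 1.94% were higher and 1.33% lower in ovary on day 1, and 15.1% and 13.8% at 10 weeks. Nr5a1 had the same order of the sexes as Gata4, with 579, 522 and 2648 in ovary, against 1962, 3543 and 556 in testis. Of the interstitial list, none of 7 passed 4-fold at 15.5 dpc, 2 were lower in ovary on day 1 (Gli1 at 5.12-fold, and Ptch1, both targets of hedgehog signals), and 4 were higher at 10 weeks. The same shares of all genes apply to this list.

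Relatives of the members in the SOX, DMRT, Iroquois, GATA, EMX, LIM-homeodomain, FOXL and TCF families gave 28 measured genes. None of 20 tested passed 4-fold in fetal gonads, beside 0.913% of all genes. On day 1 the 2 of 21 that did, beside 3.27%, were Lhx8, an oocyte factor, at least 16.6-fold higher in ovary, and Gata2, 5.31-fold higher. At 10 weeks 3 of 20 were higher in ovary and 4 lower, about the shares of all genes (15.1% and 13.8%). Dmrtb1 and Dmrtc2, DM-domain factors of male germ cells, were at the floor in adult ovary, against signals of 4514 and 886 in adult testis, whereas their relative Dmrt1 was highest in neonatal testis. Gata6 had ovary signals of 1425, 2046 and 1535, against 1134, 1478 and 318 in testis, and so did not share the neonatal order of Gata4. Sox4 had 3434, 1877 and 4396 in ovary, against 2860, 3595 and 143 in testis.

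**Figure D5:**
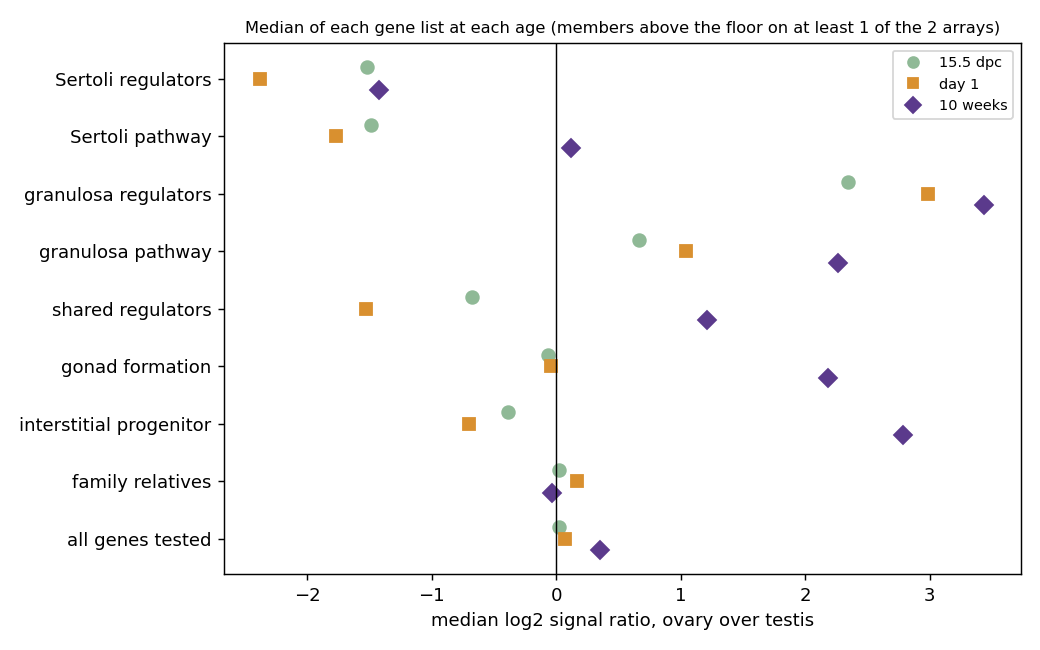
Median log2 signal ratio of ovary over testis for each gene list at 15.5 dpc (circle), on day 1 (square) and at 10 weeks (diamond), over list genes above the floor on at least 1 of the 2 arrays. The Sertoli regulators stay left of 0 and the granulosa lists right of it at all 3 ages, and the shared regulators lie at -0.67, -1.53 and 1.21, the last being 0.09 with the hybridization controls. The adult Sertoli value rests on Dmrt1 and Sox9 and was -0.19 with the floor at the 25th percentile.

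The genes whose floored log2 signals ran closest to each member over the 6 arrays were found among 4918 to 5843 genes with a range of at least 2 on the log2 scale. With 6 points that share arrays, ages and sexes, many genes reach a high Pearson r, and the values are descriptions. For Dmrt1 they were Cstdc1 (r = 0.988) and Myo7a (0.986), and 22 genes exceeded 0.9. For Sox9 they were Gpr37 (0.993) and Dleu7 (0.987). For Foxl2 they were Gbp6 (0.983) and Gdpd2 (0.980), and for Irx3 D630039A03Rik (0.985) and Xist (0.966), the RNA that silences an X chromosome in female cells. For Gata4 they were Bok (0.984) and Serinc5 (0.981), with 78 genes over 0.9. Lhx9 ran with Bex2 (0.995) and Kif26a (0.994), Wt1 with Pdk1 (0.993) and Fat4 (0.990), Emx2 with E330013P04Rik (0.952) and Ano1 (0.950), and Tcf21 with Aff3 (0.995) and Csk (0.994). For Tcf21 687 genes exceeded 0.9, against 12 for Emx2, the fewest of the 9 members compared. Sox8 was left out because it did not reach 2 times the floor.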

How the data were processed

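Per the labels' protocols, cRNA made from total RNA was labelled with biotin. The probe set names are those of Affymetrix arrays. No source used here gives the number of animals behind a sample. The deposited table holds 1 linear intensity per probe set and array. Per the submitters' processing notes GCOS 1 was used, with no role named, and no source used here gives the background correction, probe set summary or scaling. Each array was multiplied by 1 factor, between 0.913 and 1.26, to a common 2% trimmed mean, floored at 75.3, and then compared. Of the 34945 probe sets with 1 symbol, the one of highest mean scaled signal stood for each gene. The 7 comparisons were ovary over testis at each age and each later over the earlier age within a tissue. Named genes were all members, up to 4 genes of each list past 4-fold with the largest ratio in a comparison, and the 2 genes closest to each member by Pearson r. Wnt4, Gata6, Cst9 and Ptgds in adult testis, Krt19 and Podxl by age, Sry, and Nr5a1 by age were named in addition, after their values were seen. Members and lists were chosen with earlier results of these data known. The steps were tested on simulated data, in which 200 genes were raised in the fetal ovary array. This did not test the scaling where many genes differ, as between adult ovary and adult testis. Python 3.11.15, pandas 2.3.3, numpy 2.4.6 and scipy 1.17.1 were used.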

Additional observations from a re-analysis of the deposited data

Results flagged for a closer look

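Of the shared regulators 3 had ratios of 2-fold or more in opposite directions at 2 ages, a size chosen after the data were seen. The log2 ratio of ovary over testis for Gata4 was 2.80 at 10 weeks and -2.31 on day 1, a difference of 5.11. Tcf21 was 7.99-fold higher in adult ovary and 2.88-fold lower in neonatal ovary than in testis, a log2 difference of 4.52. Lhx9 was 2.30-fold higher in adult ovary and 4.12-fold lower in neonatal ovary, a log2 difference of 3.25. Its dimmer probe sets did not carry the adult part, with 77.2 or the floor in adult ovary against the floor in adult testis. The second brightest did, at least 2.56-fold higher in adult ovary. Gata4 also had opposite age steps, with a log2 ratio of 10 weeks over day 1 of 1.68 in ovary and -3.43 in testis, which is the same difference of 5.11 between the same 4 arrays. None of these differences was tested, since each group has 1 array. Gata4 kept 2-fold in both directions under the 9 alternatives. Adult Lhx9 fell under 2-fold after quantile normalization (log2 ratio 0.90), with the hybridization controls (0.08) and with the floor at the 75th percentile (0.04), and neonatal Tcf21 did so with the hybridization controls (-0.92).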

How the results depend on the processing

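No called member ratio changed its direction under any of the 9 alternatives, while uncalled ones did, such as adult Wt1 (1.01 to -0.11 with the hybridization controls). Of 556 values of members 472 moved by no more than the SD from pairs of probe sets. This count includes values that could not move, such as the 58 without _s_at and _x_at probe sets, whose probe sets stayed the same. Quantile normalization and scaling to the same median left all 64 values within this SD. With the hybridization controls 35 values moved further and 27 did not. The floor at the 75th percentile gave 0 members past 4-fold in fetal gonads, 4 in neonatal and 3 in adult gonads, and 1 for day 1 over 15.5 dpc in testis, against 2, 7, 5 and 2. Scaling to the hybridization controls gave 4 in neonatal gonads and 3 in adult gonads, and in testis at 10 weeks over day 1 it gave 2 higher and 2 lower members against 0 and 5. Under it 753 genes were higher in adult ovary and 3474 lower (2166 and 1980 with the main scaling), 474 and 83 in neonatal ovary (254 and 175), and 4054 and 404 in adult over neonatal testis (1939 and 1876). The floor at the 25th percentile and 16 added with no floor each gave 1 member, Dmrt1, lower on day 1 than at 15.5 dpc in ovary, and signals as deposited gave 1, Gata4, higher at 10 weeks than on day 1 in ovary, against 0 in both. Fewer signals lie above a higher floor, and with a lower floor or none the neonatal ovary signal of Dmrt1 (17.8) was no longer raised to 75.3. A changed scale factor moves all members above the floor in a comparison by the same amount. What made the hybridization controls differ between arrays was not tested. Sox9 on day 1 was lower in ovary by 0.29 to 2.56 on the log2 scale over the alternatives. Without _s_at and _x_at probe sets Wt1 could not be measured. No paired analysis was possible because each group has 1 array, and leaving out replicates was not possible for the same reason. Signals at the floor limit Sox8, Sox9 in adults and Irx3 in testis.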
